A study of Mus musculus with 30 samples.

Results

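The genes described here are 72 of 21887 protein-coding mouse genes and comprise 7 subfamilies: 11 Srsf genes, 9 Sf3a and Sf3b genes, 12 Snrp genes, 3 U2af genes, 13 Prpf genes, 21 Hnrnp genes and 3 Ptbp genes. They were chosen by symbol alone (Srsf, Sf3a, Sf3b, Snrp, U2af, Prpf, Hnrnp or Ptbp) from the RefSeq annotation of GRCm38. The rule uses no measured value, but it was chosen with earlier results of these data known. Messenger RNA precursors are spliced by the spliceosome, which is assembled from small nuclear ribonucleoproteins and from proteins that mark exons and introns. SR proteins, encoded by the Srsf genes, bind exonic enhancers and recruit the splicing machinery. The U2AF and SF3 complexes recognise the 3′ end of the intron and the branch point, the Snrp genes encode Sm and other proteins of the ribonucleoprotein particles, and the Prpf genes encode factors that assemble and activate them. The hnRNP and PTB proteins bind nascent RNA and often repress exons, and several factors (SRSF2, SF3B1, U2AF1 and ZRSR2) are recurrently mutated in human myeloid neoplasms.

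Chromatin immunoprecipitation followed by sequencing was analysed for UTX, a histone H3 lysine 27 demethylase of the MLL3/4 complexes, and for Menin, the adaptor of the MLL1 complex. The 4 libraries were UTX in cells treated with MI-503, a Menin-MLL inhibitor, UTX in cells given DMSO, the vehicle, Menin in MI-503 and Menin in DMSO. All came from WT-MA9 cells, which are leukaemia cells of mouse origin with a stable MLL-AF9 transgene and a GFP marker in the retroviral vector pMSCV, harvested on day 4 in medium with IL6, IL3 and SCF. Each condition had 1 library here, so no difference between conditions has a replicate check and none was tested; the other 26 of the 30 labelled libraries were not analysed here.

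The UTX MI-503 list held 14231 peaks, the UTX DMSO list 217, the Menin MI-503 list 8 and the Menin DMSO list 11195. A gene was given a peak when a summit, the highest point of a peak, lay within 1 kb of the gene's start or end coordinate. Fold is the authors' enrichment of the summit over its local background, and −log10 q is the authors' significance of that summit. Both describe and rank peaks within 1 list only. Reads at a summit were recovered from these values. The steps of the recovered pileups imply that UTX DMSO was sequenced to at least 1.14 times the depth of UTX MI-503, and Menin MI-503 to at least 1.35 times the depth of Menin DMSO, if peaks were called with the usual scaling of MACS2. The parts of depth and of antibody yield in the length of a list were not tested. Intervals below are exact 95% intervals and cover counting error only.

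The promoters of 6 genes show where the peaks lay and where they were missing. Each is 300 bases of RefSeq sequence (GRCm38.p6), from 250 bases before to 50 bases after an annotated transcription start. Capitals mark matches, on either strand, to 6 motifs, and matches may overlap. The motifs are the CCAAT box, the GC box with the letters GGGCGG, the E-box with CACGTG, the CRE motif with TGACGTC, the ETS motif with CCGGAAG and the NRF1 motif with GCGCATG. Ptbp1 (chr10:79854182-79854481, plus strand) had the highest UTX MI-503 peak and Hnrnpa2b1 (chr6:51469845-51470144, minus strand) the highest Menin DMSO peak of the 72 genes. Hnrnpc (chr14:52103972-52104271, minus strand) was the gene with a UTX DMSO peak. Hnrnph1 (chr11:50377428-50377727, plus strand) had peaks at an annotated start that the window around its outer coordinates missed. Ptbp2 (chr3:119783339-119783638, minus strand) and Srsf12 (chr4:33209022-33209321, plus strand) had no peak nearby.
Ptbp1: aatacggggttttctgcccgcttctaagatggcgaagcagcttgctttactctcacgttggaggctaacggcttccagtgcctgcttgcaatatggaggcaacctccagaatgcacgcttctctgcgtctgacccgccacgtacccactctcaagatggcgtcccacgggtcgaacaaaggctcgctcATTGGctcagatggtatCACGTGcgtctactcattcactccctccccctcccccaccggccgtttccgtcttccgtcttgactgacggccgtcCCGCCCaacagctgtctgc
Hnrnpa2b1: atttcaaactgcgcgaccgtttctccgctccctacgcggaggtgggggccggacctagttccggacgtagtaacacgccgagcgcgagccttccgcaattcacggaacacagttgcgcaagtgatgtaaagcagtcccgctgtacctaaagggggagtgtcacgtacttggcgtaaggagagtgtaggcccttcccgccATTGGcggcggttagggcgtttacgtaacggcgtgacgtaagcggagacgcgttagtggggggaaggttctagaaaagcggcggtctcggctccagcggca
Hnrnpc: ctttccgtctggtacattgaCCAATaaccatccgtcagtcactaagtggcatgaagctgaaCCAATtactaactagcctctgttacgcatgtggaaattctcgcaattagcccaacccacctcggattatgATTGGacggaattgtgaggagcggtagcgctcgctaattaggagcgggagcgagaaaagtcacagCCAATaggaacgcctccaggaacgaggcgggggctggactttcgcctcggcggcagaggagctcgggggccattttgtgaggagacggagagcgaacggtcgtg
Hnrnph1: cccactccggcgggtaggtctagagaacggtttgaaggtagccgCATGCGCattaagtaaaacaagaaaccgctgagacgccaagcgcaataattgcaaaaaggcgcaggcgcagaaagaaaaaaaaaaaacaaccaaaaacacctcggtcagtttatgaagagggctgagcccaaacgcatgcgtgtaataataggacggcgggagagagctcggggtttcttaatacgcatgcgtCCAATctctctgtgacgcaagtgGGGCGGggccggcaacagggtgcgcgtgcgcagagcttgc
Ptbp2: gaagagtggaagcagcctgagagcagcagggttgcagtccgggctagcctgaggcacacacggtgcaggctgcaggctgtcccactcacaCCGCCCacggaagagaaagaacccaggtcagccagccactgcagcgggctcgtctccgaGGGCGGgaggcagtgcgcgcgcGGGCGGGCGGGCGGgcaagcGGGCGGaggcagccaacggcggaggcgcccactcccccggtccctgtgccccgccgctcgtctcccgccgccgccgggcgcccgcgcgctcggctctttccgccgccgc
Srsf12: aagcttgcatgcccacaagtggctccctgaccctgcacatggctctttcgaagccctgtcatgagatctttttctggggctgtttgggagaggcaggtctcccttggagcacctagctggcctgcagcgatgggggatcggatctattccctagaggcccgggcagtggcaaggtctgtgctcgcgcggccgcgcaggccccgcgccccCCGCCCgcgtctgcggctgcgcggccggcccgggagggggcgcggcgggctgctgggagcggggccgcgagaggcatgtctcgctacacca
Among the printed windows, G and C made up 74.7% at Ptbp2 and 69.0% at Srsf12, which had no peak, and 58.3% at Ptbp1, 54.3% at Hnrnpc and 53.3% at Hnrnph1. The windows of the other genes without a peak nearby were lower, at 46.0% for Hnrnpa1l2-ps2 and 40.3 to 48.0% for the 4 annotated starts of Snrpn, so genes without peaks lay on both sides. CCAAT, the sequence bound by NF-Y, occurred 4 times before the Hnrnpc start, with first bases 54, 119, 189 and 230 bases upstream, and once before the Ptbp1 start, 62 bases upstream. The Ptbp2 window held 6 GC boxes, some of which overlap one another. By the rule of 1 kb from a gene's start or end coordinate, CCAAT was found in a promoter of 4 of the 7 genes with neither peak (57.1%). The share was 26 of the 51 genes with both peaks and a promoter in the table (51.0%). Of those 4, Hnrnpf and Hnrnph1 did have both peaks over an annotated promoter that held CCAAT. Hnrnpa1l2-ps2 and Snrpn held CCAAT without a peak nearby, and Ptbp2 and Srsf12 had neither CCAAT nor a peak nearby.

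Most of these genes had a UTX peak near their start or end in MI-503 and a Menin peak there in DMSO, and almost none had a peak in the other lists. A UTX MI-503 peak was found at 63 of the 72 genes (87.5%, interval 77.6 to 94.1%), where the share of all protein-coding genes was 36.5%. In the UTX DMSO list 1 gene had a peak (1.39%, interval 0.0352 to 7.50%), against 0.777% of all genes. In the Menin MI-503 list no gene had one, against 0.00914% of all genes. In the Menin DMSO list 61 genes had one (84.7%, interval 74.3 to 92.1%), against 31.2% of all genes. A gene without an entry in a list had no peak that passed the authors' threshold, which is not a reading of 0. The gap between the UTX lists was present over all protein-coding genes too, with 7982 in MI-503 and 170 in DMSO.

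**Figure D1:**
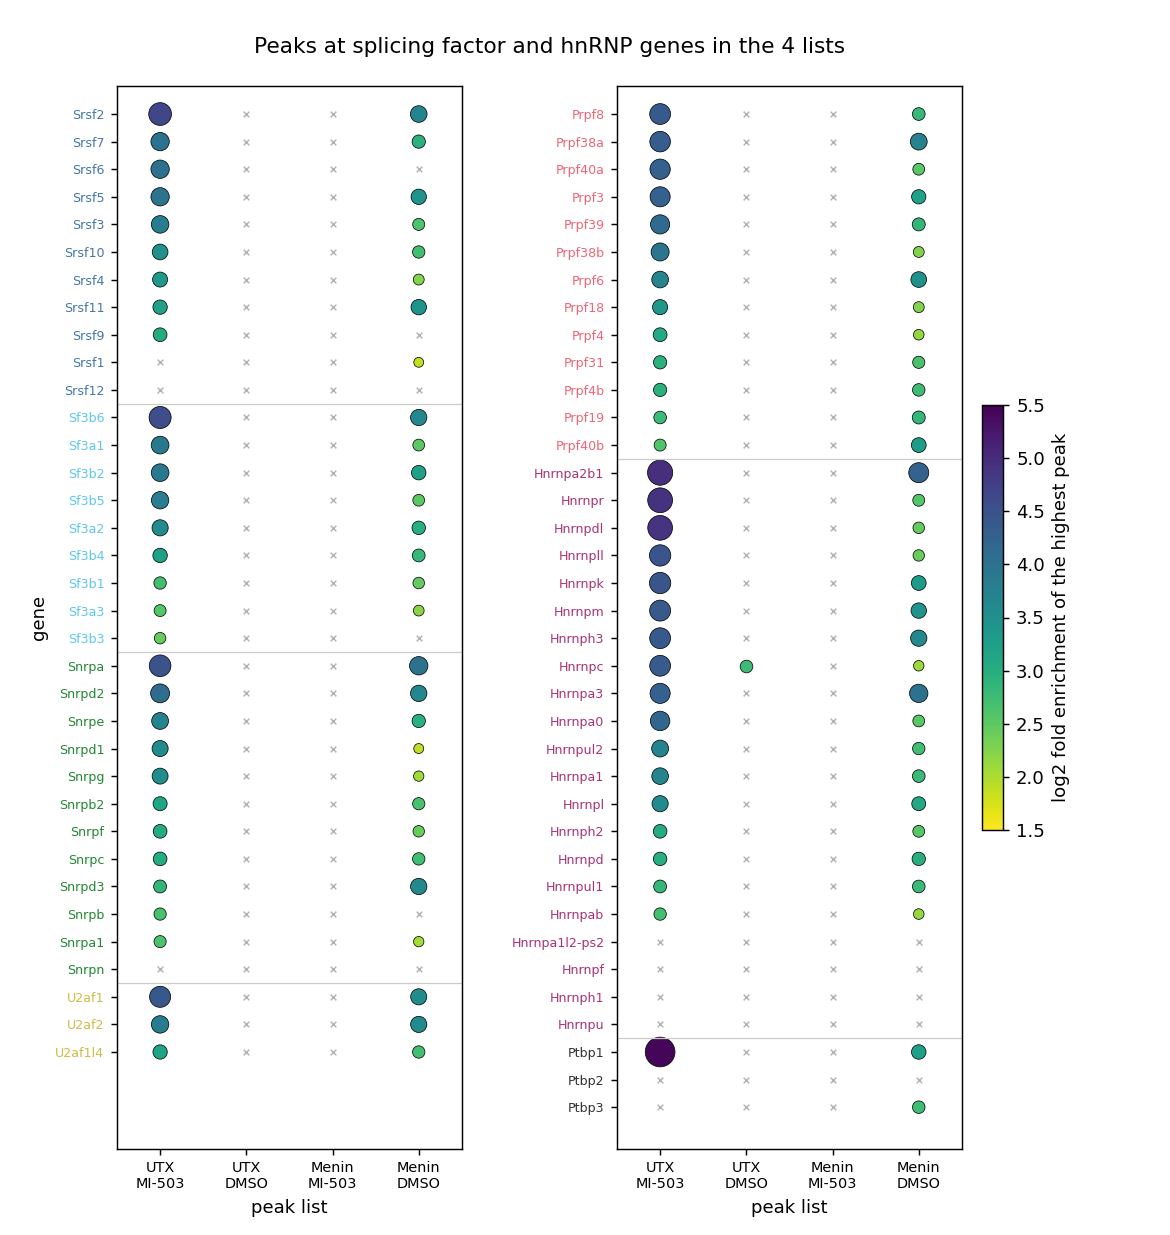
Peaks at the 72 genes in the 4 lists (columns), with genes in rows, ordered within each subfamily (label colour) by UTX MI-503 fold. A circle is the highest peak of a gene, its size and colour following the authors' fold enrichment (colour on a log2 scale), and a grey cross marks a gene without a peak in the window. Circles fill the UTX MI-503 and Menin DMSO columns, with 63 and 61 genes, and the UTX DMSO column has only Hnrnpc.

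Most of the genes had both peaks: 59 of 72 (81.9%, interval 71.1 to 90.0%) had peaks in UTX MI-503 and in Menin DMSO, against 28.4% of all genes. These were 93.7% of the 63 genes with a UTX MI-503 peak and 96.7% of the 61 with a Menin DMSO peak. Over all protein-coding genes the corresponding shares were 77.8% and 90.9%. UTX MI-503 alone was found at 4 genes, against 8.10% of all genes, and Menin DMSO alone at 2, against 2.85%. Neither peak was found at 7 genes, against 60.7% of all genes.

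The prefixes differed in their counts, although with 3 to 21 genes each the intervals are wide. Peaks of both kinds were present at all 13 Prpf genes and all 3 U2af genes. Of the 9 Sf3a and Sf3b genes, 9 were in the UTX MI-503 list and 8 in the Menin DMSO list, and of the 12 Snrp genes 11 were in UTX MI-503 and 10 in Menin DMSO. Of the 11 Srsf genes, 9 had a UTX MI-503 peak (81.8%, interval 48.2 to 97.7%) and 8 a Menin DMSO peak. Of the 21 Hnrnp genes, 17 had both (81.0%, interval 58.1 to 94.6%), and of the 3 Ptbp genes 1 had its UTX MI-503 peak and 2 their Menin DMSO peak.

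**Figure D2:**
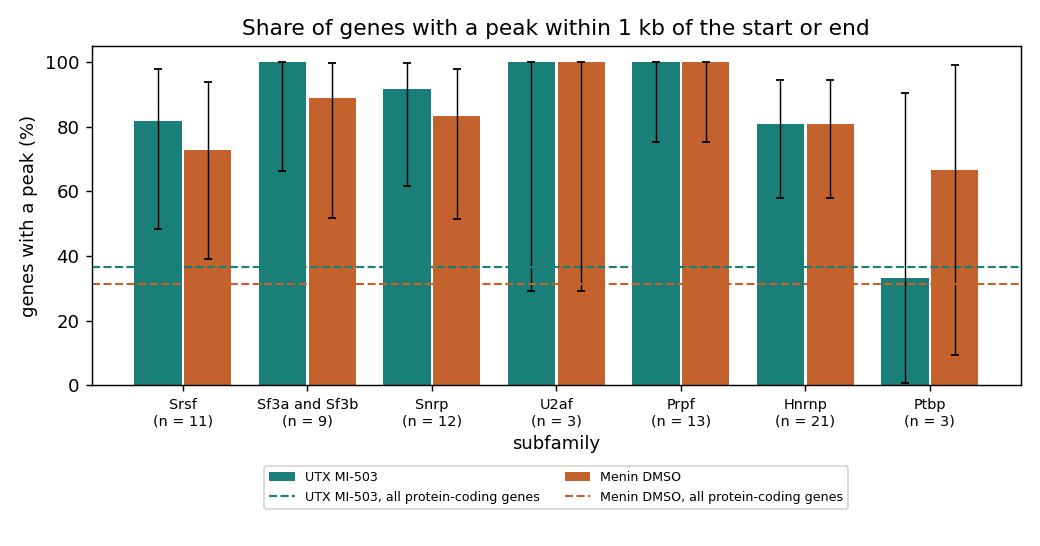
Share of genes with a peak (percent, vertical axis) in each subfamily, UTX MI-503 beside Menin DMSO, with exact 95% intervals as error bars and the number of genes per subfamily on the axis. Dashed lines mark the shares over all protein-coding genes, 36.5% for UTX MI-503 and 31.2% for Menin DMSO, and the Prpf and U2af bars reach 100% in both lists.

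Srsf2, whose protein recognises exonic enhancers, had the highest peaks among the SR protein genes. Its UTX MI-503 peak was 25.1-fold, with 45 reads at the summit, and its Menin DMSO peak 12.8-fold, with 64 reads. Srsf5 had 15.8-fold and 29 reads in UTX MI-503 and 10.7-fold and 71 reads in Menin DMSO. Srsf7 had 15.9-fold and 28 reads in UTX MI-503 and 7.71-fold and 57 reads in Menin DMSO, also within 1 kb of a boundary of Gemin6, a gene of the SMN complex that assembles snRNPs. No SR protein gene had a UTX DMSO or Menin MI-503 peak. Srsf6 and Srsf9 had a UTX MI-503 peak alone. The Srsf6 peak was 15.9-fold, with 28 reads, and its nearest Menin DMSO summit was 80322 bp away. The Srsf9 peak was 8.32-fold, with 16 reads, and the nearest Menin DMSO summit was 7327 bp away. Srsf1, the founding member of the family, was the reverse by the window, with a Menin DMSO peak of 3.67-fold and 23 reads and no UTX MI-503 peak, but a UTX MI-503 peak of 18.8-fold with 35 reads lay 1121 bp inside its start coordinate, just outside the window. Srsf12 was the SR protein gene without either peak, its nearest summits lying 14563 bp away in UTX MI-503 and 14496 bp away in Menin DMSO.

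The genes of the SF3 complex, the part of the U2 snRNP that holds the branch point, had a median UTX MI-503 fold of 12.0 and a median Menin DMSO fold of 6.43. Sf3b6, whose protein contacts the branch point adenosine, led them with 23.5-fold and 42 reads in UTX MI-503 and 12.2-fold and 71 reads in Menin DMSO. Sf3b2 had 14.7-fold and 33 reads in UTX MI-503 and 9.39-fold and 55 reads in Menin DMSO. Sf3a2 had 12.0-fold and 21 reads in UTX MI-503 and 7.98-fold and 33 reads in Menin DMSO. Sf3b1, the largest SF3b subunit and the one mutated in myelodysplasia, had low peaks within its subfamily. They reached 6.54-fold with 14 reads in UTX MI-503 and 5.52-fold with 27 reads in Menin DMSO. Sf3b3 had the weakest UTX MI-503 peak of the 63, 5.47-fold with 9 reads (interval 4.12 to 17.1), and its nearest Menin DMSO summit was 73016 bp away.

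Among the snRNP protein genes, Snrpa, which encodes the A protein of the U1 particle, stood highest. It had 22.6-fold and 46 reads in UTX MI-503 and 106 reads in Menin DMSO, the most of any Menin DMSO peak at these genes. The Sm core gene Snrpd2 had 17.0-fold and 30 reads in UTX MI-503 and 12.4-fold and 62 reads in Menin DMSO. Snrpe, another Sm core gene, had 13.1-fold and 23 reads in UTX MI-503 and 7.80-fold and 33 reads in Menin DMSO. Sm genes whose products sit in the same ring ranked differently in the lists. Snrpd3 was high in Menin DMSO (12.3-fold, 52 reads) and in the middle of the UTX MI-503 list (7.25-fold, 14 reads). Snrpb, a further Sm core gene, had a UTX MI-503 peak of 6.36-fold with 12 reads and its nearest Menin DMSO summit was 27898 bp away. Snrpn, the imprinted Sm gene expressed mainly in neurons, had no peak, with the nearest summits 753106 bp away in UTX MI-503 and 753766 bp away in Menin DMSO.

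U2af1 encodes the subunit that reads the AG at the 3′ splice site. It had 21.3-fold and 40 reads in UTX MI-503 and 11.9-fold and 79 reads in Menin DMSO, and its peaks stood in the top 5.71% and 7.49% of these lists by −log10 q. U2af2, whose protein binds the polypyrimidine tract, had 14.3-fold and 30 reads in UTX MI-503 and 12.1-fold and 49 reads in Menin DMSO. Both summits lay beyond its end coordinate, by 217 bp and 189 bp, and also within 1 kb of a boundary of Epn1. Near the start coordinate of U2af2 the highest peaks were lower, at 5.29-fold with 16 reads in UTX MI-503 and 4.92-fold with 24 reads in Menin DMSO. No annotated start or strand was available for this gene. U2af1l4, a paralogue of U2af1, had 9.11-fold and 17 reads in UTX MI-503 and 6.50-fold and 32 reads in Menin DMSO. The U2af genes were the subfamily with the highest median Menin DMSO fold, 11.9, on 3 genes. That ranking takes for U2af2 the 12.1-fold peak near its end coordinate and Epn1, not the lower peaks near its start coordinate.

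The Prpf genes had no member without peaks, but their heights ranged from 6.06-fold to 20.8-fold in UTX MI-503 and from 4.44-fold to 13.2-fold in Menin DMSO. Prpf3, of the U4/U6 particle, had 19.2-fold and 50 reads in UTX MI-503 and 9.11-fold and 75 reads in Menin DMSO. Prpf38a, of the complex that precedes activation, had 20.3-fold and 38 reads in UTX MI-503 and 13.2-fold and 66 reads in Menin DMSO. Prpf8, the core of the catalytic centre, had 20.8-fold and 47 reads in UTX MI-503 and 6.96-fold and 40 reads in Menin DMSO. Prpf8 thus had the highest UTX MI-503 fold of the Prpf genes beside a Menin DMSO fold below that of Prpf38a and Prpf3. Of the Prpf genes, Prpf40b lay lowest in the UTX MI-503 list (6.06-fold, 14 reads), while its Menin DMSO peak was 9.87-fold with 41 reads.

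Hnrnp genes had the highest median UTX MI-503 fold of the subfamilies with more than 1 peak, 19.3, beside a median Menin DMSO fold of 6.88. Hnrnpa2b1, an RNA-sorting and exon-repressing hnRNP, had 31.0-fold and 62 reads in UTX MI-503 and 19.1-fold and 96 reads in Menin DMSO, also within 1 kb of a boundary of the heterochromatin protein gene Cbx3. Hnrnpa3 had 19.3-fold and 39 reads in UTX MI-503 and 15.9-fold and 60 reads in Menin DMSO. Hnrnpm had 21.1-fold and 41 reads in UTX MI-503 and 10.8-fold and 51 reads in Menin DMSO. At some hnRNP genes the highest peak was high in UTX MI-503 only. Hnrnpr had 30.1-fold and 54 reads in UTX MI-503 and 5.95-fold and 23 reads in Menin DMSO. Hnrnpdl had 29.9-fold and 55 reads in UTX MI-503 and 5.47-fold and 21 reads in Menin DMSO. These highest peaks lie apart, but each list had a peak at both places: a second UTX MI-503 peak of 17.7-fold with 33 reads covered the Menin DMSO peak, and a second Menin DMSO peak of 3.90-fold with 22 reads lay inside the 29.9-fold UTX MI-503 peak.

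Hnrnpc, which coats uridine tracts in nascent RNA, was the only one of the 72 genes with a UTX DMSO peak. It had 37 reads at the summit in UTX MI-503 (20.7-fold, interval 26.1 to 51.0 reads), 13 reads in UTX DMSO (6.87-fold, interval 6.92 to 22.2 reads) and 45 reads in Menin DMSO (4.27-fold), and no Menin MI-503 peak. The read intervals of UTX MI-503 and UTX DMSO do not overlap, which compares 2 libraries and not 2 conditions. The UTX DMSO peak ranked 192 of 217 in its list, with a −log10 q of 5.16. All of these peaks lie at the start of Hnrnpc and within 1 kb of a boundary of Rpgrip1. In Menin DMSO the local background was 9.78 reads, the highest of the 61 genes (median 4.08), so 45 reads gave a low fold.

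Ptbp1, which represses exons through pyrimidine-rich sites, had the highest UTX MI-503 peak of the 72 genes, and its neuronal paralogue had none. Ptbp1 had 43.8-fold and 79 reads in UTX MI-503 (interval 62.5 to 98.5 reads), rank 12 of 14231, and 9.46-fold and 54 reads in Menin DMSO, rank 1967 of 11195. Ptbp2, which takes over from PTBP1 in neurons, had its nearest summits 206202 bp away in UTX MI-503 and 1387133 bp away in Menin DMSO. Ptbp3 had a Menin DMSO peak of 6.73-fold with 24 reads, and its nearest UTX MI-503 summit was 13790 bp away.

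**Figure D3:**
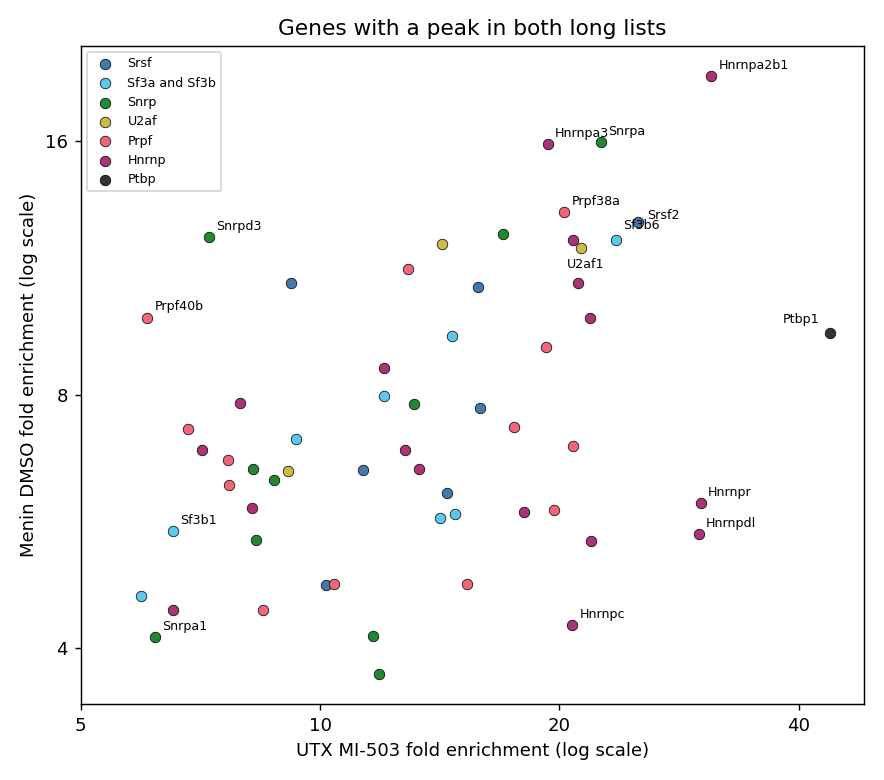
UTX MI-503 fold (horizontal, log scale) against Menin DMSO fold (vertical, log scale) of the highest peaks at the 59 genes with both, coloured by subfamily. Hnrnpa2b1 is high in both, Ptbp1, Hnrnpr and Hnrnpdl lie far to the right at 5.47-fold to 9.46-fold in Menin DMSO, and Snrpd3 and Prpf40b lie to the upper left.

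Of the 7 genes without either peak, 3 had both peaks at an annotated transcription start inside the gene. Hnrnph1, which binds G tracts, reached 24.6-fold with 44 reads in UTX MI-503 and 8.65-fold with 57 reads in Menin DMSO. These summits lay at −74 bp and −84 bp from the start whose promoter is printed above, 2347 bp and 2337 bp from the gene's outer coordinate. Hnrnpf, its close relative, reached 16.6-fold with 31 reads in UTX MI-503, 10 bp downstream of 1 annotated start, and 10.9-fold with 43 reads in Menin DMSO, 5 bp downstream of another. Hnrnpu, a scaffold protein of the nuclear matrix, had 13 reads and 7.66-fold in UTX MI-503, 21 bp downstream of its annotated start, and 44 reads and 8.86-fold in Menin DMSO, on that start. The outer coordinates of these 3 genes lie over 1 kb beyond the summits. Adding every annotated start to the rule, a choice made after seeing the data, gave 67 genes with a UTX MI-503 peak (93.1%, against 39.4% of all genes) and 64 with a Menin DMSO peak (88.9%, against 33.6%). Both were then present at 63 genes (87.5%, against 30.7%). UTX DMSO stayed at 1 gene, against 0.822% of all genes, and Menin MI-503 at 0, against 0.00914%. By that rule 4 genes had neither peak (5.56%, against 57.7% of all genes): Ptbp2, Snrpn, Srsf12 and Hnrnpa1l2-ps2, the last with its nearest summits 3066476 bp away in UTX MI-503 and 2856368 bp away in Menin DMSO. Just inside the window, the highest UTX MI-503 summit of Prpf4b lay 995 bp and that of Hnrnpdl 982 bp from a boundary. Both genes also had a lower UTX MI-503 peak nearer a boundary, at 408 bp and 7 bp, so neither depends on the window's edge. Just outside the window, the nearest UTX MI-503 summits of Hnrnpu and Srsf1 lay 1097 bp and 1121 bp away. With a window of 500 bp, Hnrnpl, Hnrnpa0 and Hnrnpk lost their peaks in both UTX MI-503 and Menin DMSO.

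At the median, these genes' peaks were higher than those of all genes in the UTX MI-503 list and slightly lower in the Menin DMSO list, which is a description without a test. The median UTX MI-503 fold was 13.1 over the 63 genes (range 5.47 to 43.8), against 10.1 over all 7982 genes with a peak. The top 10% of the UTX MI-503 list held the peaks of 20 of the 63 (31.7%), against 18.4% of all genes with a peak. In Menin DMSO the median fold was 6.88 over the 61 genes (range 3.67 to 19.1), against 7.34 over all 6834 genes with a peak. The top 10% of that list held 7 of the 61 (11.5%), against 15.8%. Median width was 442 bp, against 381 bp over all genes, in UTX MI-503, and 327 bp, against 351 bp, in Menin DMSO. Reads at the summit ran from 9 to 79 (median 26) in UTX MI-503 and from 16 to 106 (median 35) in Menin DMSO. The local background of these peaks had a median of 1.02 reads in UTX MI-503 and 4.08 in Menin DMSO. A higher fold in UTX MI-503 than in Menin DMSO therefore does not mean more reads.

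The Hnrnp genes stood high in the UTX MI-503 list and in the middle of the Menin DMSO list. In UTX MI-503, 10 of their 17 peaks were in the top 10% of the list (18.4% of all genes with a peak were), with a median standing of the top 6.85%. In Menin DMSO 2 of 17 were (15.8% of all genes with a peak), with a median of the top 38.9%. Of the 10 in UTX MI-503, only the peaks of Hnrnpr, Hnrnpa3 and Hnrnpa0 did not also lie within 1 kb of another protein-coding gene. A fold of at least 5 was reached by 50 of the 72 genes in Menin DMSO (25.0% of all genes did). Of the 59 genes with both peaks, 45 (76.3%) stood higher in the UTX MI-503 list, including 15 of the 17 Hnrnp genes, where 66.0% of all 6210 such genes did. The lists have different lengths, so this compares places within lists and shows no change. Across the 59 genes, which share both libraries, Spearman's correlation of the fold values was 0.39, and 0.43 over the 6210.

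**Figure D4:**
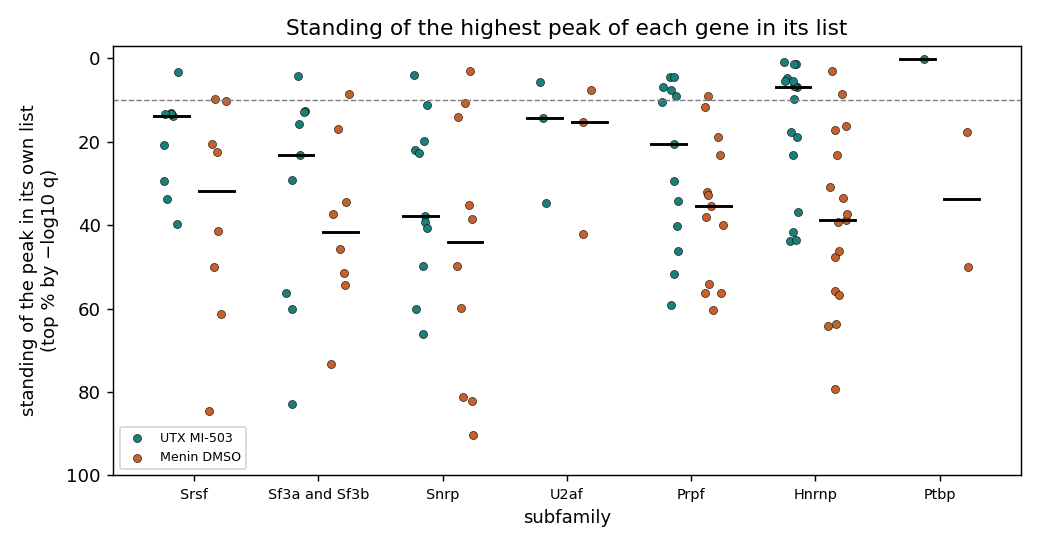
Standing of each gene's highest peak within its list (vertical axis, percent of peaks in the list at or above it by −log10 q, so that low values are high peaks), by subfamily, UTX MI-503 left of Menin DMSO. Points are genes, black bars are medians, the axis runs downward from 0, and the dashed line marks the top 10%, which holds 10 of 17 Hnrnp genes in UTX MI-503 and 2 of 17 in Menin DMSO. Of all genes with a peak, 18.4% lie in the top 10% in UTX MI-503 and 15.8% in Menin DMSO.

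Reads at the summits can be set beside those of the short UTX DMSO list. The UTX DMSO peaks of the whole list had 11 to 197 reads, with a median of 18. In UTX MI-503, 62 of the 63 genes had at least 11 reads (98.4%, against 90.5% of all genes with a peak) and 44 had more than 18 (69.8%, against 53.8%). The lowest reads of a called peak are not a detection limit. Why these genes had almost no UTX DMSO peaks was not tested. With the UTX MI-503 and Menin DMSO lists each trimmed to their 217 highest peaks, the length of the UTX DMSO list, 4 of the 72 genes had a UTX MI-503 peak (1.03% of all genes did) and 0 a Menin DMSO peak (0.978% did). Those 4 were Ptbp1, Hnrnpa2b1, Hnrnpr and Hnrnpdl. After Hnrnpc, the gene nearest to a UTX DMSO summit was Sf3a1, at 4144 bp. In the Menin MI-503 list the nearest summit to any of the genes lay 657499 bp away, from Prpf18.

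Peaks clustered at the 5′ ends. Among genes with an annotated start, the highest peak by −log10 q lay nearer the 5′ end in 54 of 54 in UTX MI-503 and in 52 of 52 in Menin DMSO. These counts were not made over all genes, so they do not set these genes apart. Genes without an annotated start are not in these counts, among them U2af2, whose highest peaks lay near its end coordinate. The median summit lay at −53.5 bp from the nearest annotated start (negative is upstream) in UTX MI-503 and at −79.5 bp in Menin DMSO. Summits within 500 bp of a start numbered 49 (90.7%, against 87.2% of all genes with a peak) in UTX MI-503 and 46 (88.5%, against 88.7%) in Menin DMSO. Summits downstream of the start made up a smaller share than over all genes, at 13 (24.1%, against 37.6%) in UTX MI-503 and 9 (17.3%, against 26.5%) in Menin DMSO. The shares over all genes take in any highest peak near a gene's 3′ end. The genes counted here had none nearer that end, so the contrast may not be between like peaks. A further peak near the 3′ end was found at Hnrnpul1 in UTX MI-503 and at Sf3a2 and Sf3b2 in Menin DMSO. At Sf3b2 the peak near the 3′ end had the higher fold, 10.6 against 9.39 near the 5′ end, but the lower −log10 q.

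**Figure D5:**
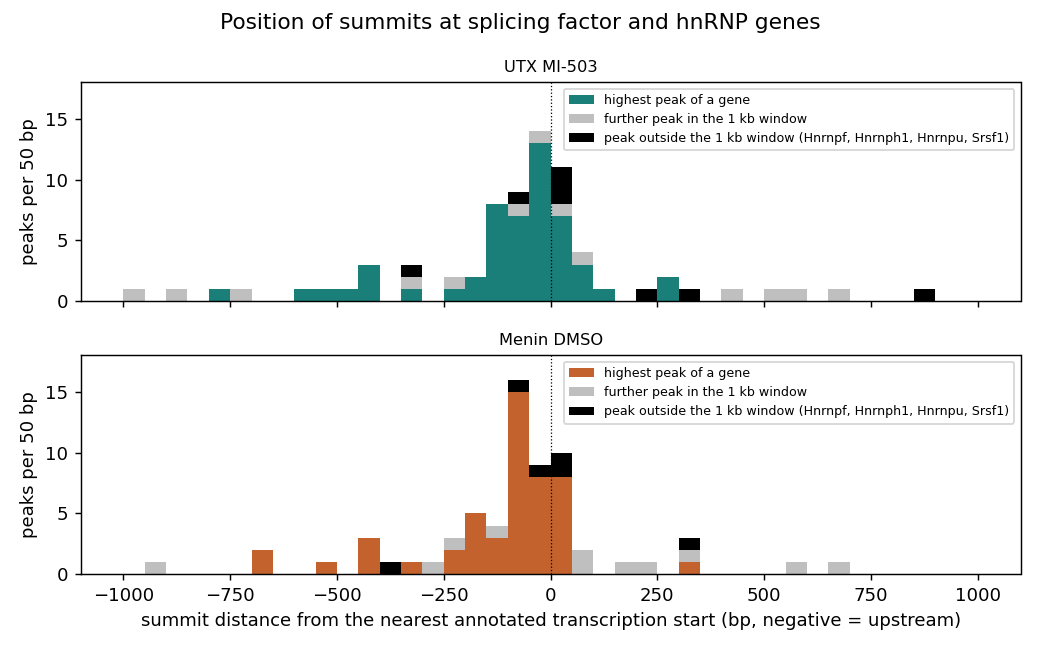
Distance of summits from the nearest annotated transcription start (bp, negative is upstream, bins of 50 bp), UTX MI-503 above and Menin DMSO below. Coloured bars are the highest peak of a gene, grey bars further peaks in its window and black bars the peaks at annotated starts of Hnrnpf, Hnrnph1, Hnrnpu and Srsf1 outside the window, and both distributions centre just upstream of 0. Peaks over 1000 bp from a start are not drawn, among them those of Hnrnpl and Hnrnpul1.

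Where a gene had both peaks, they were mostly the same place. The UTX MI-503 and Menin DMSO peaks overlapped at 55 of 59 genes (93.2%, against 94.6% over all genes with both), and at 46 (78.0%, against 78.5%) they shared at least 50% of each other's length. The median distance between summits was 29 bp, against 39 bp over all genes with both. The UTX MI-503 peak was the wider at 47 of the 59 (79.7%, against 62.9%). The highest peaks did not overlap at Hnrnpd, Hnrnpdl, Prpf4b and Snrpa1. With every peak in the window counted, UTX MI-503 and Menin DMSO peaks overlapped at 58 of the 59 genes (98.3%, against 98.3% over all genes with both), the exception being Snrpa1. At Hnrnpdl, for example, UTX MI-503 summits lay at 268 bp and −707 bp from the start, and Menin DMSO summits at 232 bp and −666 bp. More than 1 peak in the window was found at 15 genes in UTX MI-503 (23.8%, against 20.6% of all genes with a peak) and at 15 in Menin DMSO (24.6%, against 9.60%), with 3 in each list at Hnrnpa1.

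Many of these peaks also lay near a neighbouring gene, so a peak cannot be given to the splicing gene alone. The highest peak also lay within 1 kb of another protein-coding gene at 26 of 63 genes in UTX MI-503 (41.3%, against 30.5% of all genes with a peak) and at 26 of 61 in Menin DMSO (42.6%, against 31.3%). By −log10 q, the 5 highest such peaks in UTX MI-503 were those of Hnrnpa2b1 with Cbx3, Hnrnpdl with Enoph1, Snrpa with BC024978, Hnrnpk with Rmi1 and Hnrnpm with Marchf2. In Menin DMSO they were those of Hnrnpa2b1 with Cbx3, Snrpa with BC024978, Srsf2 with Mfsd11, Snrpd2 with Qpctl and Snrpd3 with Gucd1. Without the shared genes, 37 of the 72 had a UTX MI-503 peak (25.3% of all genes did), 0 a UTX DMSO peak (0.512%) and 35 a Menin DMSO peak (21.4%).

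Of the 72 genes, 62 had promoters in the RefSeq table, and these were rich in CpG. The ratio of observed to expected CpG had a median of 0.916 over the 62, against 0.564 over 17492 protein-coding genes and 0.812 over the genes with both peaks. Median G and C content was 60.2%, against 56.3% and 62.0%. The ETS motif CCGGAAG was found at 32.3% of the 62 genes, against 12.9% of all genes and 26.1% of those with both peaks. CCAAT was found at 51.6%, against 42.3% and 47.8%, and the GC box GGGCGG at 67.7%, against 49.2% and 75.7%. The E-box CACGTG was found at 16.1%, against 8.91% and 14.0%. The NRF1 motif GCGCATG was found at 11.3%, against 5.40% and 10.6%, and the CRE motif TGACGTC at 8.06%, against 4.35% and 8.49%. A gene counted when any of its annotated promoters held the letters on either strand, and a match is not a measured binding site. The motif shares lay closer to those of genes with both peaks than to those of all genes for the ETS, CRE, NRF1 and E-box motifs, CCAAT and the GC box.

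Genes of other spliceosome parts and regulators were also mostly in the UTX MI-503 and Menin DMSO lists. In a list of 70 further splicing genes, picked by hand for their known roles and with earlier results of these data known, 58 had a UTX MI-503 peak (82.9%, interval 72.0 to 90.8%, against 36.5% of all genes), none a UTX DMSO peak and none a Menin MI-503 peak. In Menin DMSO, 53 had one (75.7%, interval 64.0 to 85.2%, against 31.2%). Both peaks were found at 47 (67.1%, against 28.4%), UTX MI-503 alone at 11 (15.7%, against 8.10%) and Menin DMSO alone at 6 (8.57%, against 2.85%). Zrsr2, which acts at the 3′ splice site of minor introns and is mutated in myelodysplasia, had both, at 5.47-fold in UTX MI-503 and 8.09-fold in Menin DMSO. Neither peak was found at 6: Cwc27, Slu7, Srrm2, Rbfox2, Mbnl1 and Srpk2.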

How the data were processed

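Per the submitters' processing notes, MACS2 was the peak caller and mm10 the mouse build; its version, the q threshold, the aligner and any read filters were not given in the sources used here. By their peak names, the deposited lists each come from a single library set against the vehicle input of its antibody. The deposited fold is a ratio of summit pileup plus 1 to local background plus 1, the pseudocount of 1 being that of the authors' peak caller. The deposited −log10 columns hold the p-value and the q-value at the summit. As a deposited score the files carry 10 times −log10 q, rounded down, which held in all 25651 peaks. None of these is a count of a library, and total depth is unknown.

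Genes were protein-coding genes of the RefSeq table for GRCm38, the same assembly as mm10, and positions are printed from 1. A gene's highest peak was the one with the highest −log10 q within 1 kb of its start or end. Reads at a summit were recovered by solving fold and −log10 p together: pileups came out as whole multiples of 1 step, within 0.01 in −log10 p or 0.1% of it, in 100% of the peaks tried (300 in each long list, and all 217 and 8 in the shorter ones), and in at most 62.5% at other steps. The steps were 1 for UTX MI-503 and Menin DMSO, 0.8742 for UTX DMSO and 0.742 for Menin MI-503. Peak assignment and read recovery were tested on simulated data. Shares have exact Clopper-Pearson intervals and reads exact Poisson intervals, both for counting error only.

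With 1 library per condition no test between conditions was made. The members, lists and alternatives were chosen with earlier results of these data known. Values are given for members with a UTX DMSO or Menin MI-503 peak, the 3 members of each subfamily with the highest mean rank in both long lists, members with a peak in 1 long list or in none, the genes mutated in myeloid neoplasms, and the 5 highest shared peaks; Hnrnpr, Hnrnpdl, Snrpd3 and Prpf40b among the others, and the genes shown at positions or in ranges, were chosen after their values were seen. The motifs were searched in promoters of 250 bases before to 50 bases after a start. Computation used Python 3.11.15 with numpy 2.4.6, pandas 2.3.3, scipy 1.17.1 and matplotlib 3.10.9.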

Additional observations from a re-analysis of the deposited data

How the results depend on the processing

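No paired analysis was possible because each condition had 1 library and the labels give no replicate numbers; for the same reason no library could be left out. With only as many of the highest peaks by −log10 q as the UTX DMSO list holds (217), 4 genes had a UTX MI-503 peak (1.03% of all genes did), 0 a Menin DMSO peak (0.978%) and 0 both. A list of that length leaves few genes of any kind with a peak, so the fall from 63, 61 and 59 was largely set by the cut. Without members whose peak also lies near another protein-coding gene, 37 had a UTX MI-503 peak (25.3% of all genes did), 0 a UTX DMSO peak (0.512%) and 35 a Menin DMSO peak (21.4%). The other 102 recomputed values stayed within 1.5 times of those reported. They used windows of 500 bp and 3 kb, a −log10 q or a fold of at least 5, long lists of equal length, the gene body, annotated starts alone, stricter overlap of the joint peaks, the highest-fold peak, and the added annotated starts, an alternative chosen after seeing the data. Within these, UTX MI-503 ranged from 60 of 72 genes, at a window of 500 bp (33.2% of all genes), to 67 of 72. Menin DMSO ranged from 50 of 72, at a fold of at least 5 (25.0% of all genes), to 64 of 72. The upper counts were those of the gene body (44.7% and 39.0% of all genes) and of the added annotated starts (39.4% and 33.6%). With annotated starts alone they were 58 and 55 of the 62 genes with a promoter, against 39.1% and 33.5% of all genes with a promoter. Sf3b3, with 9 reads, was not in the UTX MI-503 list at a −log10 q of at least 5. Total depth is unknown, so what depth limits was not tested.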
